A study of Rattus norvegicus with 8 samples.

Results

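Retinoid metabolism and binding genes were followed in fetal rat testes cultured with mono(2-ethylhexyl) phthalate (MEHP), the monoester formed from the plasticizer di(2-ethylhexyl) phthalate. The 9 genes were Bcmo1, Aldh1a1, Aldh1a2, Cyp26b1, Rbp4, Crabp1, Crabp2, Rara and Rarb. They were chosen by their measured response: the family was selected on the high Bcmo1 ratio and the low Aldh1a1 ratio at 10 µM, so the ratios of all of them at 10 µM are a description and carry no test. The members were found by the gene name that the array design gives each probe. Of the 9 genes, 8 had a probe, among 35581 gene names on the array, and they held 10 of its 41012 probes. No probe carried the plain name Crabp1.

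The testes had been explanted in mid-gestation and cultured for 72 h with MEHP at 1 µM (1 testis) or 10 µM (3 testes) in the vehicle, DMSO. The comparison is of exposed explants with vehicle explants, to find genes whose RNA level differed with MEHP. RNA of each testis was hybridized on 2 two-colour Agilent whole rat genome arrays, 8 in all, against 1 pool made from 3 vehicle testes, so every ratio shares the same control RNA and the spread between control testes is not measured. The study's methods take the MEHP testes from different litters. The labels put MEHP on the green dye on all 8 arrays and the methods speak of a dye swap between both arrays of a pair. MEHP was therefore taken as green in the first hybridization and as red in the repeat, a likely direction that the files do not state for each array. If the exchanged arrays were the first ones, every sign below turns.

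Retinol reaches cells bound to carrier proteins and is oxidised to retinal, which also arises from the cleavage of beta-carotene. Retinal is then oxidised to retinoic acid. Retinoic acid binds nuclear receptors of the RAR family, which pair with RXR receptors on DNA, and CYP26 enzymes break it down. In the fetal gonads retinoic acid is known for its part in the entry of germ cells into meiosis, and CYP26B1 is the enzyme known to keep it low in the fetal testis.

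The sequence upstream of the annotated start is shown for Bco1, the present name of Bcmo1, and for Aldh1a1, because these were the genes with the high and the low ratio. Both are RefSeq sequences of build GRCr8, 250 bases long, on the plus strand. Bco1 lies at chr19:62057890-62058139 and Aldh1a1 at chr1:227537370-227537619, and the bases end just before the start. Capitals mark AGGTCA, the half-site that nuclear receptors of the RAR, RXR and PPAR families are known to bind, here read on the opposite strand.
Bco1: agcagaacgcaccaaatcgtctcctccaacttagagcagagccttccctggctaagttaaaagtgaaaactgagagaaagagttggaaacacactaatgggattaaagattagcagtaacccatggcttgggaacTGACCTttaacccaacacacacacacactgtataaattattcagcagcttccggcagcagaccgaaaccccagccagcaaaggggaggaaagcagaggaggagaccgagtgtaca
Aldh1a1: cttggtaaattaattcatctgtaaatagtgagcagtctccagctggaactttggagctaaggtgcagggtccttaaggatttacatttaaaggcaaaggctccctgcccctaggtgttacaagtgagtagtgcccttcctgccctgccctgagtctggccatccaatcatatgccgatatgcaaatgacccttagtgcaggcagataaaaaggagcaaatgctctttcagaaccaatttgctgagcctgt

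Motifs were searched on both strands of the 300-base windows from 250 bases before to 50 bases after the start. AGGTCA was found in 1 of the 9 members, Bco1, where it begins 115 bases before the start, and in 16.2% of 33469 windows of all genes. AGGTCANAGGTCA, the repeat with a spacer of 1 base that PPAR and RXR bind together, was in none of the 9 and in 0.0538% of all windows, and it overlaps the half-site by its letters. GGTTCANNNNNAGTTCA, the known retinoic acid response element of Rarb, was in Rarb and in 3 of the 33469 windows. It lies at chr15:11336416-11336432, begins 24 bases after the annotated start, and is shown with its half-sites in capitals.
Rarb: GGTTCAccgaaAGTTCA

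Ratios are given as log2 of MEHP over vehicle. At 10 µM the tested probes were those in which either channel stood well above background on 3 or more of 6 arrays. This held for 9913 probes and for 6 of the 10 member probes. At 1 µM 13174 probes met the criterion on 1 or more of 2 arrays, again with 6 member probes. The 10 µM testes differed in signal: in the MEHP channel of testis 2, 0.249% and 1.54% of the spots stood well above background, against 7.80% to 26.4% on the arrays of testes 1 and 3. Testis 1 had a median ratio of 0.09 over the tested probes, testis 2 of −1.13 and testis 3 of −0.20. Slide 1 held testes 1 and 2 of the 10 µM group, and slide 2 held testis 3 and the 1 µM testis.

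By its brighter probe, Bcmo1, the enzyme that cleaves beta-carotene into retinal, stood above vehicle on all 8 arrays. At 1 µM the ratio of its brighter probe (A_44_P474388) was 1.08 on the first array and 1.48 on the repeat, a mean of 1.28 or 2.43-fold. At 10 µM the hybridizations gave 1.59 and 2.03 in testis 1, 2.28 and 5.21 in testis 2, and 2.71 and 2.22 in testis 3. All 6 values at 10 µM, from 3 testes, lay above both values at 1 µM, from 1 testis. The means of the 3 testes were 1.81, 3.75 and 2.47, which gives 2.67 ± 0.98 (SD, n = 3), or 6.39-fold. Of the 9913 tested probes, 7 had a higher mean. Within slide 2, the ratio was 1.28 in the 1 µM testis and 2.47 in the 10 µM testis. The difference between the doses was not tested. Bcmo1 was picked for its high ratio at 10 µM, which favours a larger ratio there than at 1 µM.

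The Bcmo1 signal in the MEHP channel was 2687 and 2414 units at 1 µM, and at 10 µM 3372 and 2869 in testis 1, 7358 and 9684 in testis 2, and 5254 and 5572 in testis 3. The vehicle channel, which held the same RNA on every array, gave between 262 and 1511 units. The low end of that range, 262, belongs to the repeat of testis 2, the array with the ratio of 5.21. Both channels of the brighter probe were well above background on all 8 arrays. Of the 9913 tested probes, 51 met this in both channels of all 6 arrays at 10 µM, and Bcmo1 was the 1 member among them. This criterion needs an MEHP signal well above background in testis 2, which 0.249% and 1.54% of the spots had. It thus favours probes with a high ratio, such as Bcmo1. The mean ratio of 4 of the 51 was above that of Bcmo1, and the median of the 51 was 1.14, against −0.42 over all tested probes. In testis 2 both MEHP channels stood well above background for 68 tested probes, 56 of them with a ratio above 0, and 16 had a higher ratio there than Bcmo1.

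Without testis 2 the mean Bcmo1 ratio was 2.14, and with each array centred on the median of its tested probes it was 3.13. Background correction by normexp with loess normalization gave 1.54 at 10 µM and 0.35 at 1 µM, and loess without background correction gave 1.38 and 0.78. The second probe of the gene (A_44_P222122) was not well above background in either channel on any array. Its ratio was exactly 0, the value the extraction software gives when both channels are at background, on 6 of 8 arrays. On both arrays of testis 1 at 10 µM it was below 0, at −0.10 and −1.01. The brighter probe stood there at 1.59 and 2.03, so the second probe did not show the higher ratio.

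**Figure D1:**
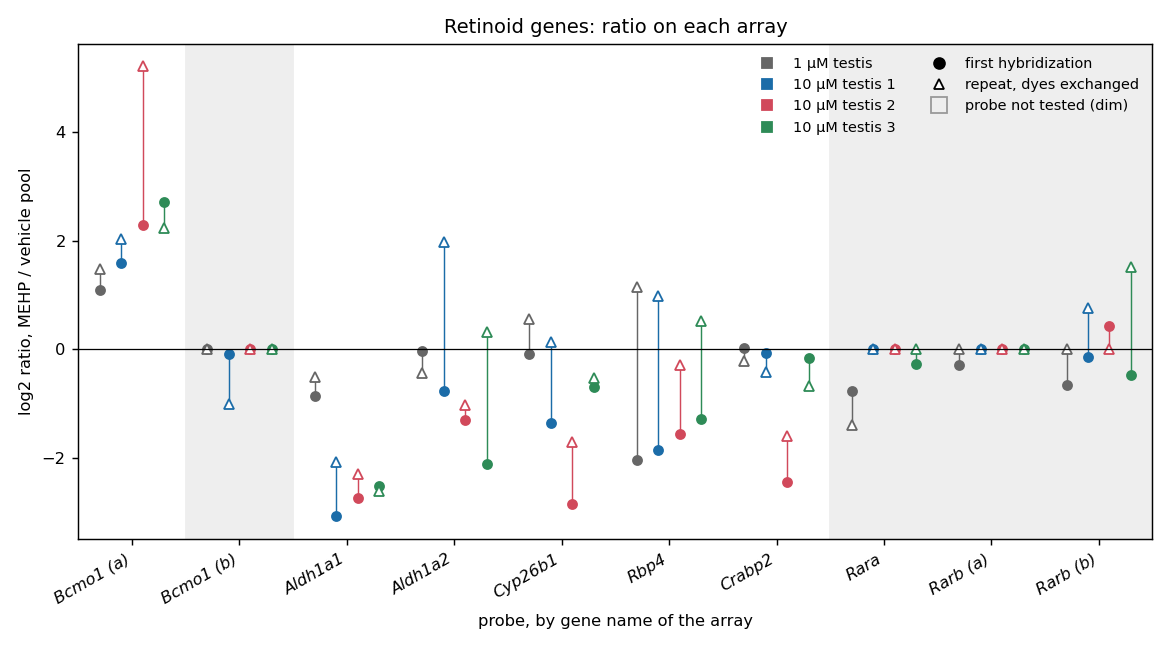
Log2 ratio of MEHP over the vehicle pool (y axis) for the 10 member probes (x axis), with filled circles for the first hybridization and open triangles for the repeat, joined by a line for each testis and coloured by testis. Grey columns mark the 4 probes that were not tested. Bcmo1 (a) lies between 1.08 and 5.21 on all 8 arrays, and Aldh1a1 between −3.08 and −2.08 on the 6 arrays at 10 µM.

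Aldh1a1, a cytosolic dehydrogenase that oxidises retinal to retinoic acid, stood below vehicle on all 8 arrays. At 1 µM its ratios were −0.86 and −0.51, a mean of −0.69, or 1.61-fold lower. At 10 µM they were −3.08 and −2.08 in testis 1, −2.75 and −2.30 in testis 2, and −2.52 and −2.62 in testis 3. The 6 values at 10 µM, from 3 testes, lay below both values at 1 µM, from 1 testis. Aldh1a1 too was picked for its 10 µM ratio, which favours such an order, and the difference was not tested. The testis means of −2.58, −2.53 and −2.57 gave −2.56 ± 0.03 (SD, n = 3), and 9 of the 9913 tested probes had a lower mean. The mean corresponds to 5.90-fold lower, but 4 of the 6 arrays had an MEHP signal not well above background, so it is not a measured fold in every testis.

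The SD of Aldh1a1 between testes was small for this data set, with 15 of the 9913 tested probes below it and a median SD of 0.80, but it includes testis 2, where the MEHP value was set by the software. The 2 hybridizations of a testis were less alike than the testes, with gaps of 1.00, 0.45 and 0.10 in testes 1 to 3. The vehicle signal was well above background on all 8 arrays, from 615 to 3210 units. The MEHP signal was 1262 and 863 units at 1 µM and between 125 and 477 units at 10 µM, where it was well above background on 2 of 6 arrays. On both arrays of testis 2 the MEHP value was a surrogate that the software sets for a signal at background, so the ratio there rests on the background level of the array. Leaving out testis 2 gave a mean of −2.58 and centring the arrays one of −2.11. It was −0.69 with normexp and loess and −0.62 with loess alone, both below 0 but nearer to it. In bulk RNA, fewer cells that express a gene and less RNA per cell cannot be told apart.

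**Figure D2:**
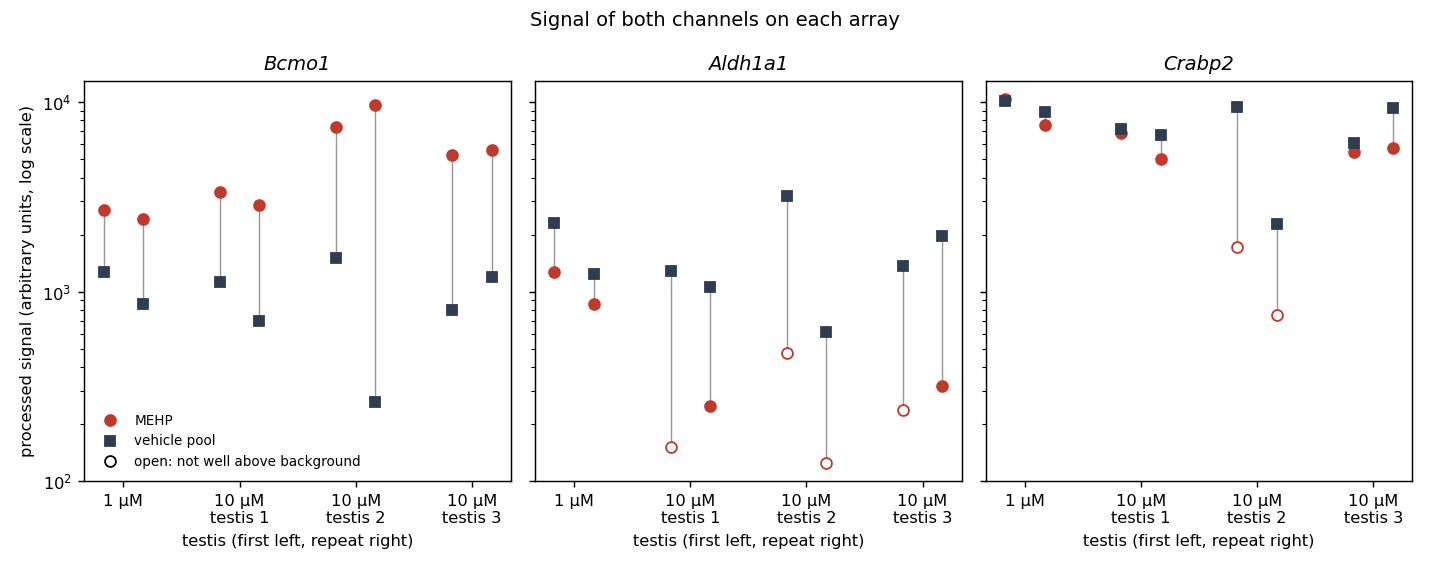
Processed signal in arbitrary units (log y axis) of the brightest probe of Bcmo1, Aldh1a1 and Crabp2 on each array, with red circles for the MEHP channel and dark squares for the vehicle pool, the first hybridization on the left and the repeat on the right of each testis (x axis). Open symbols were not well above background. Bcmo1 has the MEHP channel above the vehicle on all 8 arrays, Aldh1a1 has it below on all 8, and Crabp2 shows its widest gap in testis 2.

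Aldh1a2, the main retinoic acid synthesising dehydrogenase of the embryo, gave ratios that disagreed in sign between the hybridizations of testes 1 and 3 at 10 µM, but not in the other 2 testes. At 1 µM they were −0.04 and −0.44. At 10 µM they were −0.78 and 1.98 in testis 1, −1.31 and −1.03 in testis 2, and −2.12 and 0.31 in testis 3. They averaged −0.49 ± 0.95 (SD, n = 3). The gap between the hybridizations, 2.76 in testis 1 and 2.43 in testis 3, was larger than the mean. The first hybridizations alone gave −1.40 and the repeats alone 0.42, and centring gave −0.04, so no direction held for this gene at 10 µM.

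Cyp26b1 stood on the retinoic acid breakdown side of the pathway. At 1 µM its ratios were −0.10 and 0.56, a mean of 0.23. At 10 µM they were −1.36 and 0.12 in testis 1, −2.85 and −1.71 in testis 2, and −0.70 and −0.53 in testis 3, so 5 of 6 lay below 0. They averaged −1.17 ± 0.96 (SD, n = 3), and the mean became −0.62 when testis 2 was left out and −0.72 on centred arrays. Testes 1 and 3, at −0.62 each, lay close together and testis 2, at −2.28, lay apart. The MEHP channel of testis 2 held surrogates for this probe on both arrays. With normexp and loess the means were −0.34 at 10 µM and −0.06 at 1 µM, the latter with the sign turned.

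Crabp2, one of the small proteins that bind retinoic acid in the cytosol, was close to vehicle outside testis 2. At 1 µM its ratios were 0.02 and −0.23. At 10 µM they were −0.07 and −0.42 in testis 1, −2.44 and −1.60 in testis 2, and −0.16 and −0.69 in testis 3. All 6 lay below 0, yet the mean of −0.90 ± 0.98 (SD, n = 3) was −0.33 without testis 2. In testis 2 the MEHP signals were 1721 and 750 units and not well above background, while on the other 6 arrays they lay between 5021 and 10350 units. Crabp1, the other cytosolic retinoic acid binding protein, was represented by a probe named Crabp1_mapped, which the rule does not take. That probe was well above background in 3 MEHP and 3 vehicle channels of 8, and its ratio was above 0 on 3 of the 6 arrays at 10 µM.

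Rbp4, the carrier of retinol in blood, gave a sign that differed between the hybridizations, except in testis 2. The first hybridizations were −2.04 at 1 µM and −1.87, −1.57 and −1.29 at 10 µM, whereas the repeats were 1.14 at 1 µM and 0.98, −0.29 and 0.52 at 10 µM. The vehicle channel was well above background on 4 of 8 arrays, the 4 first hybridizations, and the MEHP channel on none. With the MEHP channel at background throughout and hybridizations of opposite sign, no fold is given for Rbp4.

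Rara and Rarb, receptors of retinoic acid, were not well above background in either channel on any of the 8 arrays, and none of their 3 probes was tested. The ratio was exactly 0 on 5 arrays for Rara and on 7 and 2 arrays for the Rarb probes A_43_P15897 and A_44_P404472. Rara was listed at −0.77 and −1.41 at 1 µM. Rarb, the member that holds the retinoic acid response element shown above, thus gave no ratio that could be read at either dose.

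**Figure D3:**
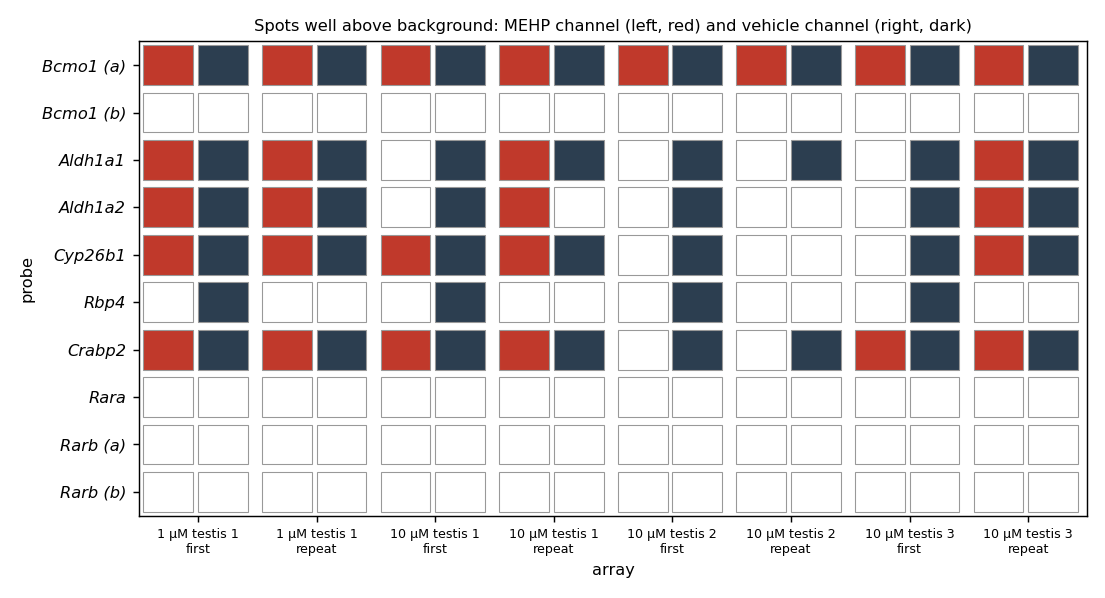
Detection of the 10 member probes (y axis) on the 8 arrays (x axis), with the MEHP channel as the left and the vehicle channel as the right box of each pair. A filled box marks a probe well above background. Bcmo1 (a) is filled in all boxes, and Bcmo1 (b), Rara and both Rarb probes in none.

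Counted over the 6 member probes tested at 10 µM, 1 (Bcmo1) was past a limma adjusted p of 0.05 with a higher ratio, where 0.373% of all tested probes were, and 1 (Aldh1a1) with a lower ratio, where 1.87% were. These calls come from the contrast that chose the genes and are not evidence about them. Both calls were absent without testis 1 and without testis 3, where no probe was called by limma (1375 and 493 had an unadjusted p under 0.05). They were absent as well with normexp and loess, with loess alone, with the first hybridizations alone, with testis as a random block, with slide as a block and with no filter on dim probes, settings in which limma called no probe (938 to 2914 had an unadjusted p under 0.05). They were absent too when both channels had to be above background on every array, where 0 of 51 probes were called (12 at an unadjusted p under 0.05). The intensity trend left 1 of the 2 calls. Without testis 2 both were present among 1741 calls in all. One probe (Bcmo1) was above 0 in all 6 hybridizations, as were 0.938% of tested probes, and 2 (Aldh1a1 and Crabp2) were below 0 in all 6, as were 19.3%. The median ratio of the 6 was −0.74 and that of all tested probes −0.42. Centring on the array medians gave 55 higher and 51 lower calls in all, against 37 and 185 without it.

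At 1 µM, where 1 testis allows no test, 1 of the 6 tested member probes (Bcmo1) was at least 1.5-fold higher in both hybridizations, as were 4.05% of tested probes. With normexp and loess the Bcmo1 ratios at 1 µM were 0.62 and 0.08 against a limit of 0.58, and the call was lost. None was at least 1.5-fold lower in both, as were 2.96%. Of the 13174 tested probes, 236 had a higher mean ratio than Bcmo1 at 1 µM. The median of the 6 member probes was −0.17 and that of all tested probes 0.02. The other 5 stood between −0.69 for Aldh1a1 and 0.23 for Cyp26b1.

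The rest of the retinoid pathway was read from a list of 55 genes of uptake, storage, oxidation, breakdown, receptors and response. Of these, 37 had a probe, and 14 probes of 11 genes were tested at 10 µM. None was past the limma adjusted p of 0.05, where 2.24% of all tested probes were. Of all 9913 tested probes, 1748 had an unadjusted limma p under 0.05, and of the 14 probes 1 had. That probe was Mdk, a growth factor known as retinoic acid inducible, with ratios of 0.96, 1.23 and 1.60 in the 3 testes, a mean of 1.26 ± 0.32 (SD, n = 3) and a limma adjusted p of 0.199. The value of testis 2 averages hybridizations of opposite sign, −0.22 and 2.68.

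Next highest were Rxrg, an RXR receptor, at 0.51 ± 1.26 and Ncoa2, a receptor coactivator, at 0.37 ± 0.60 (SD, n = 3). At the low end were Adh4, an alcohol dehydrogenase, at −0.99 ± 0.48, Dgat1, which esterifies lipids and retinol, at −0.71 ± 1.09, and Rarres2, a secreted retinoid-responsive protein, at −0.71 ± 0.91. The limma adjusted p-values of these 5 lay between 0.344 and 0.787. The tested Adh4 probe, which matched no RefSeq gene, gave −2.11 and 1.11 in the hybridizations of testis 1. Another Adh4 probe was not well above background in either channel on any array. Without testis 2, 3 of the 14 probes of the list were past the adjusted threshold, where 17.5% of all tested probes were. They were Mdk (1.28), Rxrg (1.22) and Ncor1 (1.33), a corepressor of nuclear receptors, all with a higher ratio. Of all 9933 probes tested without testis 2, 746 were called higher. The called Rxrg probe gave 0.19 and 2.80 in the hybridizations of testis 3. The other Rxrg probe was not well above background in either channel on any array. At 1 µM 1 of the 20 tested probes of the list was called higher, Ncor1, with ratios of 0.87 and 1.21, where 4.05% of all tested probes were. The same Ncor1 probe gave 1.25, −2.63 and 1.41 in the 10 µM testes, so testis 2 lay apart from the others. The other Ncor1 probes did not show these values: those tested at 1 µM averaged 0.38, 0.49, 0.34 and −0.46 there, and those tested at 10 µM averaged 0.05, 0.14 and 0.21 without testis 2.

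**Figure D4:**
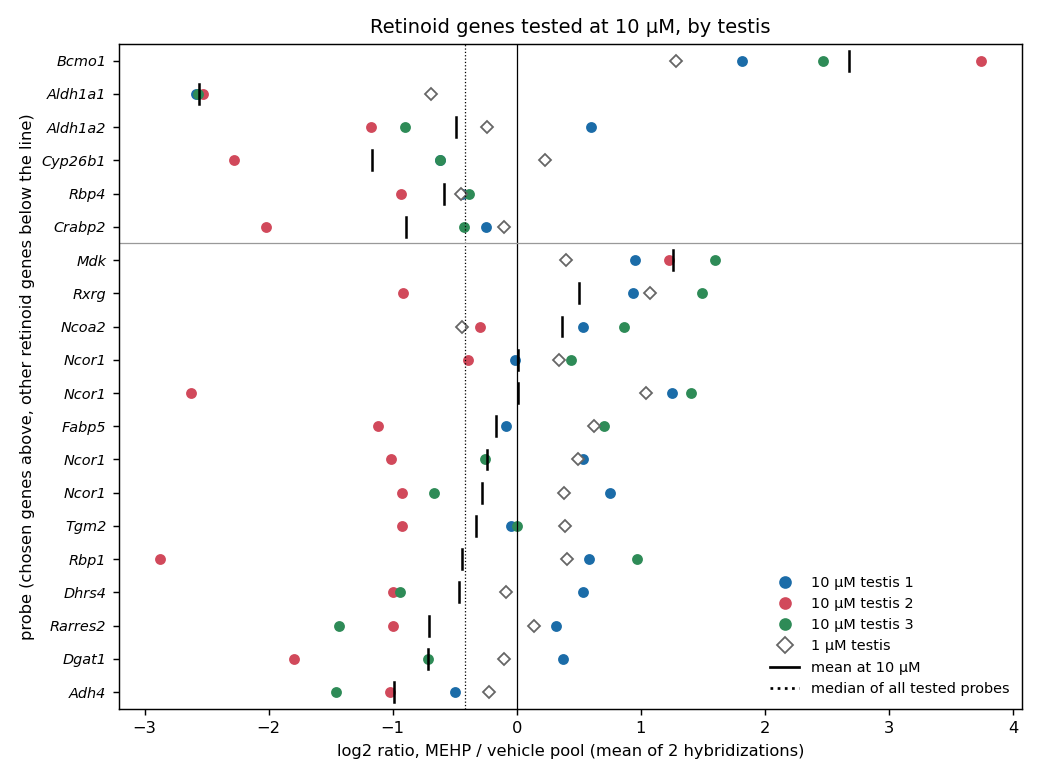
Log2 ratio of MEHP over vehicle (x axis, mean of the 2 hybridizations) for the 6 member probes and the 14 other retinoid pathway probes tested at 10 µM (y axis), with filled circles for the 3 testes at 10 µM, open diamonds for the 1 µM testis, a black bar for the mean at 10 µM and a dotted line at −0.42, the median of all tested probes. Bcmo1 lies highest at 2.67 and Aldh1a1 lowest at −2.56, and testis 2 is the lowest of the 3 testes for most of the other pathway probes.

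The probes whose 8 ratios ran most like those of Bcmo1, among 2810 with a channel well above background on all arrays, were Mss4 (Pearson r 0.959), Dos_predicted (0.959) and Inhbb (0.956), the beta B subunit of inhibin and activin. Mss4 stood at 0.13 at 1 µM and at 0.96, 4.16 and 1.88 in the 10 µM testes, with the high value in testis 2 as for Bcmo1. Dos_predicted stood at 0.05 at 1 µM and at 0.89, 1.87 and 0.95 at 10 µM. Inhbb stood at −0.13 at 1 µM and at −0.17, 2.74 and 0.72 at 10 µM. Unlike Bcmo1, it was thus not above 0 at 1 µM or in testis 1 at 10 µM. Most like Aldh1a1 were Mrpl22_predicted (0.982) and Mrps23_predicted (0.951), named for mitochondrial ribosomal proteins, and Nck1_predicted (0.942), named for an adaptor protein. Mrpl22_predicted stood at −0.44 at 1 µM and at −1.69, −1.86 and −1.89 at 10 µM. The 8 arrays share the vehicle pool and 4 testes, so these coefficients describe likeness only.

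The tissue was read from markers. Of 6 Sertoli cell markers with a probe, 2 were well above background in the vehicle channel of all 8 arrays, and of 5 tested at 10 µM, 4 were below 0 in all 3 testes, with list medians of −0.26, −0.79 and −1.23. Of 4 tested Leydig cell markers, 3 were below 0 in all 3 testes, with medians of −1.38, −1.34 and −1.85. The share of all tested probes below 0 in all 3 testes was not counted, so these counts are a description only. By the stricter measure of all 6 hybridizations, 19.3% of tested probes were below 0. Of the tested Sertoli cell markers only Amh met this measure, and of the tested Leydig cell markers only Cyp17a1 and Insl3. Fshr and Lhcgr, the receptors that define these cells, were not well above background in the vehicle channel of any array. No germ cell, mesonephros, liver or blood marker was tested at 10 µM, and none of these was well above background in the vehicle channel of all arrays. The medians of all tested probes in the same testes were 0.09, −1.13 and −0.20. The Sertoli cell list lay below these medians in testes 1 and 3 and above in testis 2. The Leydig cell list lay below them in all 3 testes. The brightest Sox9 probe of the Sertoli cell list and Star of the Leydig cell list, the latter at 1.27, were above 0 in testis 1. The 2 tested peritubular cell markers had medians of −0.26, −1.48 and −0.40. The 1 tested endothelial marker stood at 0.96, −2.0 and 0.81 and the 1 tested macrophage marker at −0.11, −0.72 and 1.43. The part of any of these cells in the member ratios was not tested.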

How the data were processed

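Agilent Feature Extraction 9.1.1.1, named in the file headers, extracted each array. The authors deposited, for each spot, a log10 ratio (red over green) and the processed, mean and background intensity of each dye. The software had subtracted background and normalized the dyes array by array. They also deposited 1 list per dose with their own fold changes and p-values, which were not used.

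The log10 ratios were converted to log2 and turned to MEHP over vehicle, control and outlier spots were left out, the spots of a probe were averaged, and a testis counted as 1 replicate with the mean of its 2 arrays. Between the 2 arrays of a testis the red over green ratios had a Pearson r of −0.818 to −0.483 (4086 spots, each with a channel well above background on all arrays), those of the first hybridizations with one another between 0.04 and 0.67. A probe counted as well above background on an array if 0.5 or more of its spots were, and any spot was tried as well after the data had been seen. The 3 testes at 10 µM were fitted against 0 over all 9913 tested probes with lmFit and eBayes in limma 3.58.1 (R 4.3.3, data.table version 1.17.8), two-sided, with Benjamini-Hochberg adjustment. The code of the fit was tried on simulated ratios. These had the spread of testes 1 and 3 alone, so the trial cannot show how the fit behaves with testis 2. The 1 µM testis was described only, with a limit of 1.5-fold in both hybridizations. Arrays carry no counts, so the number of arrays limits the precision.

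Named were every member probe, the brightest of a gene first, the pathway genes past the threshold, the 3 highest and 3 lowest of that list, those past 1.5-fold at 1 µM, and the 3 probes most like Bcmo1 and Aldh1a1. The members and lists were chosen with earlier results of these data known. Gene names are those of the array, and 7 of the 10 member probes matched a RefSeq gene of GRCr8 by accession. The alternatives were normexp with an offset of 50 or no background correction (both with loess), centring, outlier spots retained, the first or the repeat hybridizations alone, 1 testis left out at a time, other filters, an eBayes trend, all 6 arrays with testis as a random block, slide as a block, and a 2-fold limit. Python 3.11.15 with matplotlib 3.10.9 drew the figures.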

Additional observations from a re-analysis of the deposited data

Results flagged for a closer look

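Cyp26b1 and Tgm2, a transglutaminase known as retinoic acid inducible, had a mean ratio above 0 in the 1 µM testis and below 0 in testes 1, 2 and 3 at 10 µM. The same held for 896 of the 9785 probes tested at both doses, or 9.16%. For Cyp26b1 the log2 ratio was 0.23 at 1 µM, the mean of −0.10 and 0.56, and −0.62, −2.28 and −0.62 at 10 µM. The mean at 10 µM differed from the 1 µM value by −1.40, and with normexp and loess the 1 µM value was −0.06. For Tgm2 it was 0.39 at 1 µM and −0.05, −0.93 and −0.001 at 10 µM, a difference of −0.71. The hybridizations of Tgm2 disagreed in sign in each 10 µM testis, with −0.28 and 0.19, −2.44 and 0.59, and −0.04 and 0.04. With 1 testis at 1 µM the difference was not tested for either gene.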

How the results depend on the processing

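The count of 222 probes past the limma adjusted threshold at 10 µM was 0 with normexp and loess (1643 probes at an unadjusted p under 0.05), with loess alone (1587), with the first hybridizations alone (2914), with all 6 arrays and testis as a random block (1690), with slide as a block (938), without a filter on dim probes (2430), and with both channels above background on every array (12). It was 106 with centring and 124 with an intensity trend, and lay between 0 and 1741 with 1 testis left out, the 1741 without testis 2. The repeats alone gave 228 calls, 111 higher and 117 lower. The cause of these changes was not tested. Of the other retinoid pathway probes 0 were called (1 at an unadjusted p under 0.05, as were 1748 of all 9913 tested), and between 0 and 3 with 1 testis left out. With both channels above background none of that list was left to test. The 924 probes past 1.5-fold at 1 µM became 68 with normexp and loess (all higher), 103 with loess alone, 307 with both channels above background and 226 at 2-fold.

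Counting a probe as above background when any of its spots was, chosen after seeing the data, gave 154 calls. No called member ratio changed sign under any alternative run: Bcmo1 lay between 1.38 and 3.15 at 10 µM and Aldh1a1 between −2.79 and −0.62. Both genes were picked for their ratios at 10 µM and each alternative used the same arrays, so the kept signs are not evidence about them. Normexp and loess, and loess alone, leave an offset or the local background in both channels, and both also normalize the dyes by loess. Which of these steps moved the ratios was not tested. No paired analysis was possible because the 1 µM group has 1 testis and both doses share the vehicle pool.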
